A study of Mus musculus with 14 samples.

Results

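CTCF is a zinc-finger protein that binds a long DNA motif and, with the ring-shaped cohesin complex, anchors chromatin loops. Its binding strength depends on the match to that motif, and methylation of a CpG inside the motif can weaken binding. Many CTCF motifs of rodents lie in copies of B2 repeats, short mobile elements that spread through the genome and carried a CTCF-like sequence with them. The data described here are the CTCF sites gained in K20R cells, in which lysine 20 of CTCF was replaced by arginine.

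A gained site had a CTCF peak in both K20R libraries and in neither wild-type (WT) library of the same day. Overlapping peaks (by at least 1 bp) of the 8 CTCF peak lists were merged into 86652 sites, and 404 of these were gained on at least 1 day. At day 0, 200 sites were gained, which is 0.25% of the 80140 sites called in any list of that day and 0.426% of the 46924 sites called in both K20R lists. At day 4, 209 sites were gained, 0.305% of 68429 and 0.536% of 39018 sites. Only 5 sites were gained on both days. The sites were thus chosen by measured peak calls of the K20R and WT lists, so these counts are a description and carry no test.

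All cells were of the mouse embryonic stem cell line E14Tg2A. The K20R allele was made by CRISPR/Cas9, and correctly targeted colonies were picked after drug selection, sequencing and Western blotting. The number of clones per genotype was not stated, so genotype and clone cannot be told apart. Day 0 cells were stem cells grown on inactivated embryonic fibroblasts with leukemia inhibitory factor (LIF) and the 2i inhibitors. Day 4 cells were embryoid bodies, aggregates formed in hanging drops without LIF in which stem cells differentiate. Each genotype and day had 2 CTCF libraries (WT and K20R, 8 in all), described in the methods as biological replicates. Peak lists hold no expression values, so the identity of the cells was not checked. Histone H3 acetylated at lysine 27 (H3K27ac) marks promoters and enhancers in use, and day 4 cells of each genotype had 1 library of it.

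The lists differed in length, which bears on every gained site. They held 77657 and 52698 peaks in WT and 52076 and 51905 in K20R at day 0, and 61088 and 61436 in WT and 41360 and 47463 in K20R at day 4. All CTCF libraries had been brought to one number of reads before peaks were called. A list holds no value below the caller's threshold, so a site missing from a WT list may have carried signal just under it.

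The sequences below show the motif match (capitals, 19 bases) with 20 bases on each side, for 14 of the named gained sites with a match. They are read 5′ to 3′ on the strand of the match from GRCm38 (mm10). The first set holds the sites gained on both days that had a match, and these show how varied the matches were.
near Gm38268, chr1:186059725-186059783, plus strand: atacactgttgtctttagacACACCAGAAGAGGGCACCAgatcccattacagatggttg
Ntng1, chr3:109832519-109832577, minus strand: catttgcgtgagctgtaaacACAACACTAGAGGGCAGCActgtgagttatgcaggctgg
near Gm8959, chr9:51681060-51681118, plus strand: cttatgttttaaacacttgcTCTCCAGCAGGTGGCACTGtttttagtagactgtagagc
near Zxda, chrX:94844492-94844550, minus strand: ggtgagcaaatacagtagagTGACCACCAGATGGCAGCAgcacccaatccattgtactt
near Cops8, chr1:90590974-90591032, minus strand: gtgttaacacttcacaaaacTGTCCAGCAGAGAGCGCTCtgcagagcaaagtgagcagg
Ttc27, chr17:74810996-74811054, plus strand: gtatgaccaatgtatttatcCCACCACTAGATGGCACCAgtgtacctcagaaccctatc
near Gm11962, chr11:5497031-5497089, plus strand: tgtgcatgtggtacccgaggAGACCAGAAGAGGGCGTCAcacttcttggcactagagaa
Peg13, chr15:72810063-72810121, minus strand: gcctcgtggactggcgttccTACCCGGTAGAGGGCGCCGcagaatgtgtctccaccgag
near Zfp988, chr4:147340392-147340450, minus strand: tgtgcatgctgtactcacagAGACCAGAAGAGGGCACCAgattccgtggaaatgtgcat
Frmpd4, chrX:167921837-167921895, minus strand: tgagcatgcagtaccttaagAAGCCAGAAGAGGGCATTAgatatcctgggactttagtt
Gm35037, chr7:3453946-3454004, minus strand: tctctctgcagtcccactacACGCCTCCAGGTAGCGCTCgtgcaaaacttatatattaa
near Irak1bp1, chr9:82826590-82826648, plus strand: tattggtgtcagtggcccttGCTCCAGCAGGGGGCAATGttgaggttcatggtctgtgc
Cbfb, chr8:105215353-105215411, minus strand: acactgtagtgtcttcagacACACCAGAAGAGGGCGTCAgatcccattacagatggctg
Kdm2b, chr5:122974834-122974892, minus strand: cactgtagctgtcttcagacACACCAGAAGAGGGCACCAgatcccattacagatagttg
The near Cops8, Ttc27 and near Gm11962 sequences belong to the strongest sites gained at day 0, and those of Peg13, near Zfp988, Frmpd4 and Gm35037 to the strongest gained at day 4. The sequence near Irak1bp1 belongs to a day 4 site that WT stem cells also bound, that of Cbfb to a 50 Mb segment of chromosome 8 that is reported apart, and that of Kdm2b to a day 0 site that both WT lists held at day 4. The 6 of these matches that lay in repeats all carry the 12 bases CCAGAAGAGGGC. Those near Gm38268 and in Kdm2b and Cbfb are related beyond the match. Without gaps, 49 (Kdm2b) and 50 (Cbfb) of 59 bases equal the Gm38268 sequence, and 30 and 33 of the 40 bases outside the match. The sequences near Zfp988, in Frmpd4 and near Gm11962 share 34, 30 and 27 of 59 bases with it. Outside the match, which was alike by the shared 12 bases, they share 16, 15 and 11 of 40.

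The gained sites were shallow peaks. Fold enrichment and p-value of a peak fix the whole number of fragments piled up at its summit, which was recovered for each gained site. At day 0, the median was 9 fragments in both K20R libraries, where the fewest fragments of a called peak was 5. The day 4 sites had medians of 9 and 10 fragments. Sites called in all 4 lists of a day had medians of 41 and 40 fragments in the K20R libraries of day 0.

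**Figure D1:**
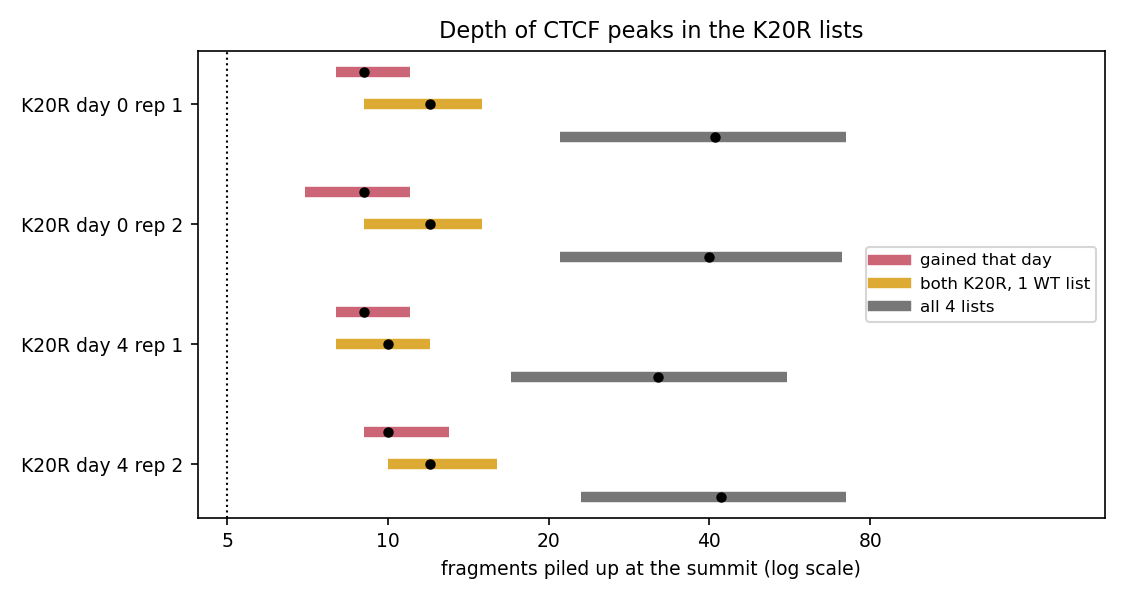
Fragments piled up at the peak summit (log scale) in the 4 K20R libraries, as the interquartile range (bar) and median (point) for sites gained that day, sites called in both K20R lists and 1 WT list, and sites called in all 4 lists. The dotted line marks 5 fragments, the fewest of a called peak, and the medians of the gained sites sit at 9 or 10.

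In 118 of 200 day 0 sites and 90 of 209 day 4 sites, neither K20R library of the day passed 10 fragments. At day 0, 197 sites stayed at 20 fragments or fewer in both libraries, and so did 197 at day 4. Median fold enrichment over the local background was 5.54 and 5.22 at the day 0 sites and 5.69 and 6.41 at the day 4 sites, against 18.06 and 17.98 (day 0) and 15.0 and 19.2 (day 4) over all sites called in the same lists. Sites just outside the rule were somewhat deeper. There were 3302 sites in both K20R lists and 1 WT list at day 0 and 514 at day 4, with medians of 12 fragments in each day 0 library and 10 and 12 at day 4. A further 1470 (day 0) and 2053 (day 4) sites had a peak in 1 K20R list and in no WT list.

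The question of whether a gain persisted was asked in the libraries of the other day, which the rule had not used. Sites gained at day 0 were called at day 4 in 8.5% and 31.0% of cases in the K20R libraries and in 21.5% and 24.0% in the WT libraries. The K20R libraries lay on both sides of the WT libraries. The mean was 19.75% ± 15.9 in K20R and 22.75% ± 1.77 in WT (SD, n = 2 each), a difference of -3.0 percentage points (two-sided exact permutation p = 1; the smallest p that this design allows is 0.333).

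Sites gained at day 4 had mostly been bound in stem cells of either genotype. They were called at day 0 in 76.6% and 78.5% of cases in K20R and in 88.04% and 54.5% in WT. The WT libraries enclosed the K20R libraries. The mean was 77.5% ± 1.35 in K20R and 71.3% ± 23.7 in WT (SD, n = 2 each), a difference of 6.22 points (two-sided exact permutation p = 1). Over all merged sites, 59.5% and 59.4% were called in the K20R libraries of day 0 and 89.1% in the first WT library, with the second close to K20R, and at day 4 the shares were 47.2% and 54.3% (K20R) and 69.7% and 70.2% (WT). Day 0 sites thus lay below the level of all sites in every day 4 library. Day 4 sites lay above it in the K20R libraries of day 0, near it in the first WT library and lower in the second. Both sets lay lower than sites called in both K20R lists of the same day. At least 1 K20R list of day 0 held 85.6% of day 4 sites, against 98.8% of sites in both K20R lists of day 4. For day 0 sites at day 4 the corresponding shares were 34.0% and 90.9%. Neither set was shown to be bound more often in K20R on the day that did not choose it.

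**Figure D2:**
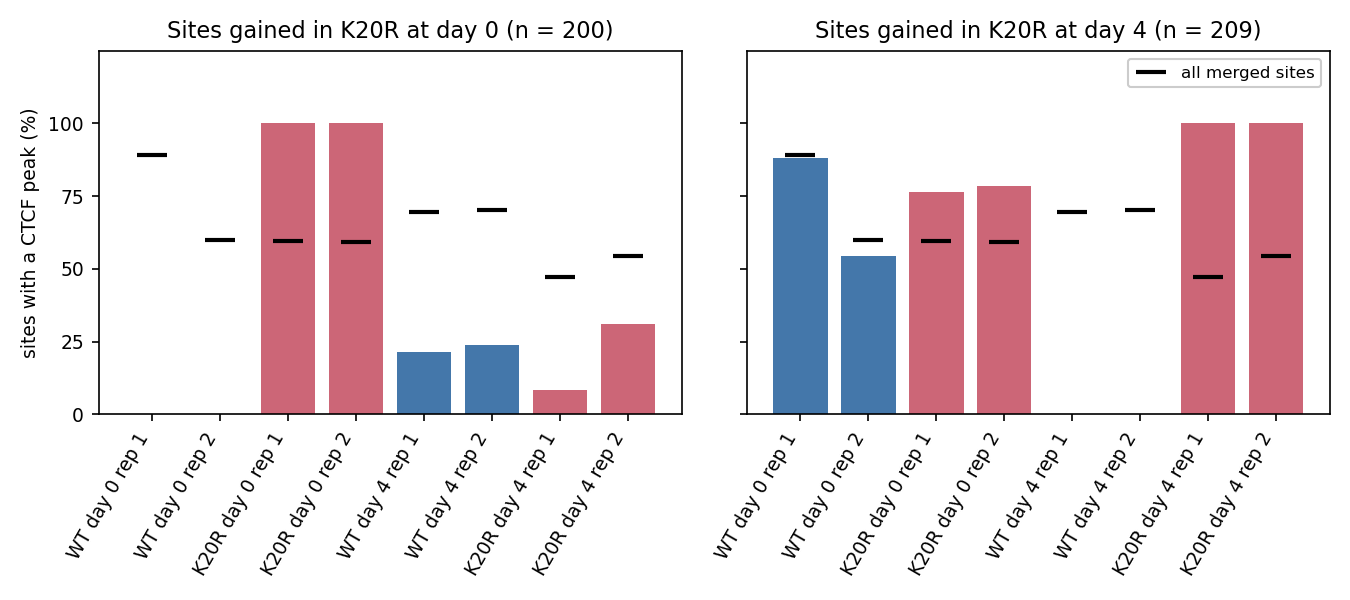
Percentage of the 200 sites gained at day 0 (left) and the 209 gained at day 4 (right) with a peak in each of the 8 CTCF libraries (WT blue, K20R red, 1 bar per library), with the share over all 86652 sites as a black dash. On the day that chose them the shares are 0 or 100 by the rule. On the other day the K20R and WT bars overlap in height.

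Single libraries carried part of this pattern. Of the day 0 sites, 51 were called at day 4 only in the second K20R library among the K20R lists and 6 only in the first. Without the first K20R library of day 4 the difference for day 0 sites turned to 8.25 points, and without the second it was -14.25. For the day 4 sites, 75 were called only in the first WT library of day 0 among the WT lists and 5 only in the second. Leaving out the second WT library of day 0 turned that difference to -10.5 points, and leaving out the first made it 23.0. It also turned negative without either K20R library of day 4, at -5.34 and -1.88 points, over the 1911 and 560 sites then gained.

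The length of the lists also moved these values. When each list was cut to its 41360 peaks of highest −log10 p, 1200 sites were gained at day 0 and 1832 at day 4. Of the 200 and 209 sites described here, 9 and 109 overlapped one of them. The day 0 set of equal lists was called at day 4 in 53.6% and 54.3% of cases in K20R and 28.4% and 29.8% in WT, so the difference turned to 24.8 points. The day 4 set was called at day 0 in 77.1% and 76.9% in K20R and 58.5% and 55.6% in WT, 19.9 points. Genotypes did not overlap in either case (two-sided exact permutation p = 0.333, the lowest that can be reached). Equal length left unequal thresholds. At day 0 the lowest −log10 p kept was 24.3 and 10.4 in WT and 11.9 in both K20R lists. At day 4 it was 14.3 and 14.2 in WT and 3.59 and 9.48 in K20R. At day 4 and in the first WT list of day 0, WT peaks were dropped at values kept in K20R. The part of these thresholds in the differences was not tested. Cutting a WT list can only add gained sites and remove sites of the reverse pattern by construction. Sites with the reverse pattern (both WT lists and neither K20R list) fell from 3903 to 1195 at day 0 and from 10345 to 2149 at day 4, and they were the mirror image on the other day. Those of day 0 were called at day 4 in 61.3% and 60.8% of cases (WT) and 32.1% and 37.0% (K20R), and those of day 4 were called at day 0 in 40.8% and 40.6% (WT) and 21.6% and 21.9% (K20R).

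Before differentiation, sites gained at day 4 had WT peaks about as often as all sites. Of the 209, 189 (90.4%) had a peak in at least 1 WT list of day 0, against 90.6% of all merged sites, and 109 (52.2%) had one in both, against 58.6%. All 4 lists of day 0 held 97 of them, and 8 had no peak at day 0. Both WT shares were lower than over all sites of both K20R lists of day 4, of which 99.8% had a peak in at least 1 WT list of day 0 and 96.3% in both. Seen from day 0, 43422 sites were called in all 4 lists. Of these, 36440 were again called in all 4 lists of day 4, 1573 in both WT lists and neither K20R list, and the 97 gained sites in both K20R lists and neither WT list (0.223%).

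**Figure D3:**
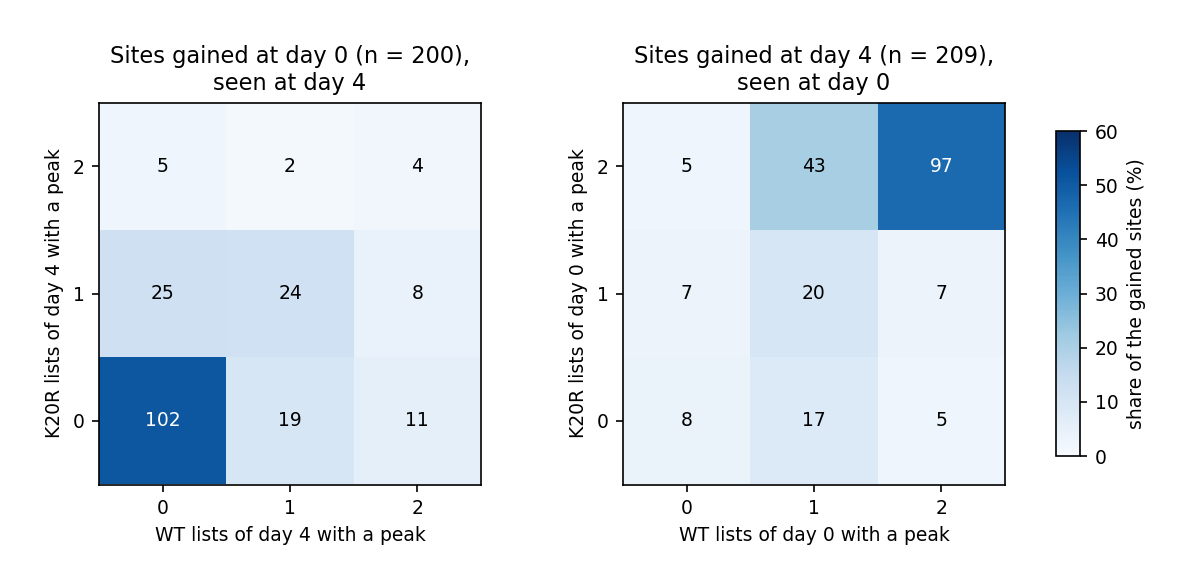
Number of gained sites by how many WT lists (x axis) and K20R lists (y axis) of the other day held a peak there; the shade is the share of the gained sites. Of day 0 sites, 102 lay in no list of day 4, and of day 4 sites, 97 lay in all 4 lists of day 0.

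In the K20R libraries, the day 4 sites had more fragments where called at day 0 than at day 4. The rule used the day 4 calls, so this order of days is a description and carries no test. Where called at day 0 they had a median of 16.5 and 17 fragments in K20R and of 19 and 12 in WT. The K20R medians at day 4 were 9 and 10. The K20R medians cover different numbers of sites (160 and 164, then 209). A site absent from a list adds no value to that list's median.

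Sites gained at day 0 behaved in another way. At day 4, 102 of 200 had no peak in any list, 68 had a peak in at least 1 WT list and 68 in at least 1 K20R list. Over all merged sites, 21.03% had no peak at day 4, 76.4% had one in at least 1 WT list and 56.5% in at least 1 K20R list. Among the 46924 sites in both K20R lists of day 0, these shares were 2.84%, 95.9% and 90.9%. Both K20R lists of day 4 held 11 of the gained sites. Over both days, 147 of the 404 gained sites had no peak in any WT list. Most of those (110) had a peak in 2 K20R lists, 32 in 3 and the 5 sites gained on both days in all 4.

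Those 5 sites were weak to moderate. One lay in an exon within Ntng1, which encodes netrin G1, a membrane-anchored protein of axons (chr3:109832302-109832672, nearest start site Gm25681 at 31292 bp). This site had 21 and 17 fragments in the K20R libraries of day 0 and 7 and 11 at day 4. The site between genes near Gm38268 (chr1:186059524-186059854) had 11 and 10, then 17 and 13. Near Gm8959 (chr9:51680934-51681234) the values were 17 and 10, then 11 and 8. Near Zxda, a gene for an X-linked zinc-finger protein (chrX:94844420-94844646), they were 9 and 11, then 10 and 9. The fifth site, near Gm47110 (chr9:67675298-67675525), had no motif match and 8, 8, 9 and 9 fragments. No day was higher throughout, and no H3K27ac peak of day 4 touched any of the 5.

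The gained site with the most fragments on the day of its gain lay at Peg13, an imprinted gene expressed from the paternal copy whose start region CTCF is known to bind on the unmethylated copy. Its summit was 237 bp from the Peg13 start site, within the host gene Trappc9 and in an exon whose gene was not recorded. The site spans chr15:72809785-72810508. It was gained at day 4, with 36 and 57 fragments in the K20R libraries and no peak in WT. At day 0 the K20R libraries had 52 and 57 fragments and the second WT library had 13, while the first WT library, which had the longest list of all, held no peak. The site was chosen by its day 4 values, and at day 0 both K20R libraries exceeded the only WT value. An H3K27ac peak overlapped it in the K20R list alone. Its match has a CpG at positions 15 and 16 of the motif, and DNA methylation was not measured in these files.

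The other strongest day 4 sites had been bound in WT stem cells. The repeat-borne match in an intron of Gm26624, with Zfp988 as the nearest start site (chr4:147340374-147340573), had 19 and 34 fragments in K20R at day 4. At day 0 it had 47 and 36 in K20R and 38 and 31 in WT. In an intron of Frmpd4, which encodes a scaffold protein of synapses (chrX:167921756-167921990), the values were 20 and 18 at day 4, and 25 and 16 (K20R) and 22 and 15 (WT) at day 0. The WT and K20R values of day 0 overlapped at Frmpd4, and at the Zfp988 site they overlapped too. In an intron of Grin2a, which encodes a subunit of the NMDA glutamate receptor (chr16:9966518-9966957), no motif match was found, and the values were 17 and 23 at day 4 and 18 and 19 (K20R) and 24 and 17 (WT) at day 0. In Gm35037 (chr7:3453935-3454290) they were 11 and 30 at day 4, 30 and 25 in K20R at day 0, and 19 in the first WT library alone.

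Of the sites called in both WT lists of day 0 and gained at day 4, 2 more are described. The site near Irak1bp1 (chr9:82826276-82826772) had 40 and 27 fragments (WT) and 40 and 48 (K20R) in stem cells. After differentiation it had 13 and 19 in K20R and no peak in WT. The site in an intron of Syt2, a calcium sensor of synaptic vesicles (chr1:134741388-134741988), had 19 and 8 in WT and 19 and 23 in K20R at day 0, then 13 and 19 in K20R.

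Of the 5 strongest day 0 sites, the one in Ntng1 is described above. The site near Cops8, a subunit of the COP9 signalosome (chr1:90590882-90591127), had 19 and 26 fragments in the K20R libraries of day 0. It was called at day 4 in the second K20R library with 21 and in the second WT library with 7. The site in an intron of Ttc27 (chr17:74810881-74811285) had 22 and 14 fragments at day 0, and at day 4 it was called in the second K20R library with 19 and the second WT library with 12. Both were thus called in 1 library of each genotype at day 4. The sites near Gm11962 (chr11:5497023-5497196; 19 and 16 fragments) and at AC126254.2 (chr17:53245988-53246161; 14 and 17) had no peak at day 4.

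Both WT lists of day 4 held 23 of the day 0 sites, and the 5 strongest of these did not share one order of genotypes. In an intron of Tlr4, which encodes the receptor for bacterial lipopolysaccharide (chr4:66923638-66923913), K20R had 12 and 11 fragments at day 0. At day 4 the WT libraries had 29 and 20 and the second K20R library had 17. In an intron of Kdm2b, a histone demethylase that recruits Polycomb complexes to CpG islands (chr5:122974703-122974988), K20R had 12 and 12 at day 0, and at day 4 the WT values (13 and 14) lay between those of K20R (9 and 15). The site near AC100212.4 had 8 and 14 in K20R at day 0 and 26 and 18 in WT at day 4, with no K20R peak. The sites near Gm48107 (11 and 14 at day 0, 9 and 13 in WT at day 4) and Gm25607 (11 and 10, then 9 and 12) had WT values at day 4 near the K20R values of day 0.

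The CTCF motif was learned from the strongest WT day 0 peaks as a matrix of 19 positions with the consensus NNGCCACCAGGGGGCGCNN, in which N marks a position with no base over 50%. A match within 100 bp of the summit, at a score that 5% of shifted sequences passed, was found at 301 of the 404 gained sites, 74.5%. It was found at 64.5% of day 0 sites (95% Wilson interval 57.7% to 70.8%) and at 84.2% of day 4 sites (78.7% to 88.5%), against 78.3% of all merged sites. Sites called in all 4 lists had a match in 89.3% (day 0) and 91.2% (day 4). These intervals cover only counting error, as if sites were independent. The share of gained sites depended on the criterion, at 60.9% for matches up to 50 bp from the summit and 40.8% for the score that 1% of shifted sequences passed, against 74.7% and 42.3% of all merged sites.

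Matches at gained sites lay often in repeats. Of the 301, 202 (67.1%, 61.6% to 72.2%) lay in bases masked as repeats in the reference, compared with 43.0% over all merged sites with a match. By day, the share was 58.1% (49.5% to 66.3%) at day 0 and 72.7% (65.7% to 78.8%) at day 4. Sites called in all 4 lists had 32.6% and 30.1%. Other sites of low strength also had high shares. Sites in both K20R lists and 1 WT list had 64.1% (day 0) and 67.7% (day 4), and all sites of both K20R lists below the 20th percentile of fold enrichment had 54.5% and 51.5%. Sites of both WT lists and neither K20R list had 44.4% and 44.1%. The share of the 1-WT-list sites of day 0 was above that of the gained sites of that day but inside their interval. At 97.5% of these 1-WT-list sites the WT peak was in the first WT list of day 0, the longest list. The classes differ in strength, whose part in the repeat share was not tested.

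One sequence accounted for much of the repeat share. The 12 bases CCAGAAGAGGGC at positions 4 to 15 of the match, read on the strand of the match whichever it was, occurred in 130 of the 202 masked matches. The next commonest word, CCAGAAGGGGGC, occurred in 10, and 34 different words were seen. This word is the form of the CTCF motif carried by B2 repeats, but the repeat family of each site was not taken from an annotation here. It was chosen because it was common among the gained sites, so its share there is a description. It lay in the match of 24.5% of day 0 sites (19.1% to 30.9%) and 39.2% of day 4 sites (32.9% to 46.0%), and in 21.3% of all merged sites, 16.7% (day 0) and 15.7% (day 4) of sites called in all 4 lists, and 35.7% and 35.4% of sites in both K20R lists and 1 WT list.

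**Figure D4:**
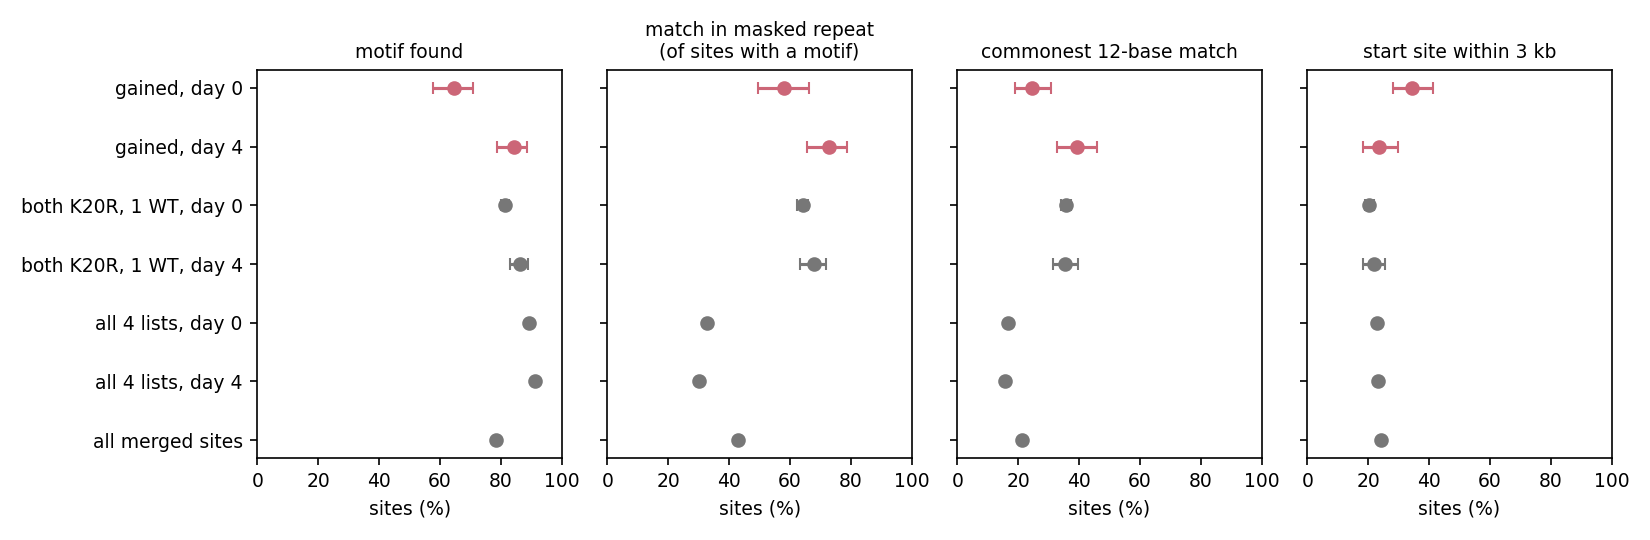
Share of sites (x axes, percent, with 95% Wilson intervals) with a motif match, with the match in a masked repeat, with the commonest 12-base match, and with a start site within 3 kb, for gained sites (red) and comparison classes (grey). The gained sites and the sites of both K20R lists and 1 WT list lie far right of the sites called in all 4 lists for the repeat share, with 58.1% to 72.7% against 30.1% to 32.6%.

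Day 4 sites with the word were called at day 0 about as often as those without it, but less often in the second WT library. The 82 with it were called in 74.4% and 76.8% (K20R) and 87.8% and 47.6% (WT), and the 127 without it in 78.0% and 79.5% and in 88.2% and 59.1%. Day 0 sites with the word had little binding at day 4 in any library. The 49 with it were called in 10.2% and 12.2% (K20R) and 10.2% and 8.16% (WT), and the 151 without it in 7.95% and 37.1% and in 25.2% and 29.1%.

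A CpG at positions 15 and 16 of the match, where its methylation can weaken CTCF binding, was present in 37.5% of the gained sites with a match (32.3% to 43.1%), compared with 31.9% over all merged sites and 37.4% and 38.4% of sites called in all 4 lists. Gained sites were near the sites called in all 4 lists in this respect. Sites of both WT lists and neither K20R list had 22.2% (day 0) and 18.7% (day 4). Among day 4 sites, the CpG was present in 30.9% (22.4% to 40.8%) of those called in both WT lists of day 0 and in 48.8% (38.3% to 59.4%) of the others.

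The promoter share was higher among day 0 sites than among day 4 sites, with intervals that overlap at their ends. The summit was within 3 kb of a start site at 69 of 200 day 0 sites (34.5%, 28.3% to 41.3%) and at 49 of 209 day 4 sites (23.4%, 18.2% to 29.6%), with 24.2% over all merged sites. Within 1 kb the shares were 25% (day 0) and 12.4% (all sites). Exons held 15.5% of day 0 sites (11.1% to 21.2%) and 9.09% of day 4 sites, against 8.57% of all sites. Among day 0 sites, the promoter share was 39.1% (31.7% to 47.0%) without the repeat-type word and 20.4% (11.5% to 33.6%) with it, with intervals that overlap. The day 0 sites also held more CpG. Within 100 bp of the summit, their upper quartile was 8 CpG, compared with 3 at day 4 sites and 4 over all sites. Day 0 sites of low fold enrichment, below the 20th percentile, had a promoter share of 37.3%, against 26.98% over all sites of both K20R lists below that percentile.

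H3K27ac peaks of day 4 overlapped 15.1% of the gained sites in the K20R list and 13.9% in the WT list, against 14.6% and 11.9% of all merged sites. At day 4 sites the overlap was 13.9% in K20R and 8.61% in WT, with 14 of 209 sites (6.70%, 4.03% to 10.9%) overlapping a peak in the K20R list alone and 3 in the WT list alone. At day 0 sites it was 16% and 19%, with 3 of 200 in the K20R list alone and 9 in the WT list alone. Over all merged sites, 4.92% overlapped a peak in the K20R list alone and 2.22% in the WT list alone, the first of which lies inside the interval of the day 4 sites. Each H3K27ac list came from a single library, so these shares have no replicate check.

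The lists of genes examined had gained sites nearby at about the share of all protein-coding genes, or had none. Within 50 kb of a start site, 1 of 34 mesoderm and cardiac genes (2.94%) and 1 of 47 imprinted genes (2.13%) had a gained site. Among all protein-coding genes, 654 of 21911 had one (2.98%). None of 25 pluripotency genes, 18 genes of other lineages or 21 genes of cohesin and CTCF partners had one. Lists this short cannot show a share below 2.98%. The imprinted gene was Peg13. The mesoderm gene was Tbx6, a T-box factor of the paraxial mesoderm. Its site (chr7:126753685-126754034, 27563 bp from the Tbx6 start, nearest start site Gm44855) was gained at day 4 with 9 and 13 fragments. At day 0 WT had 21 and 12 and the second K20R library had 15.

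Gained sites were spread over the chromosomes but not evenly. Chromosome X had the highest share, with 22 of 2244 sites (0.98%), against 0.466% of all merged sites. It held 5.45% of the gained sites and 2.59% of all sites. Of sites in both K20R lists and 1 WT list, it held 5.81% (day 0) and 3.11% (day 4). Chromosome Y held none among 32 sites. Chromosome 10 had the lowest share among the others, 0.255%. Of the 404, 6 had another gained site within 10000 bp, 32 within 100000 bp and 167 within 1000000 bp. They stood a median of 16569 bp from the nearest site called in all 8 lists, against 12445 bp for all merged sites.

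**Figure D5:**
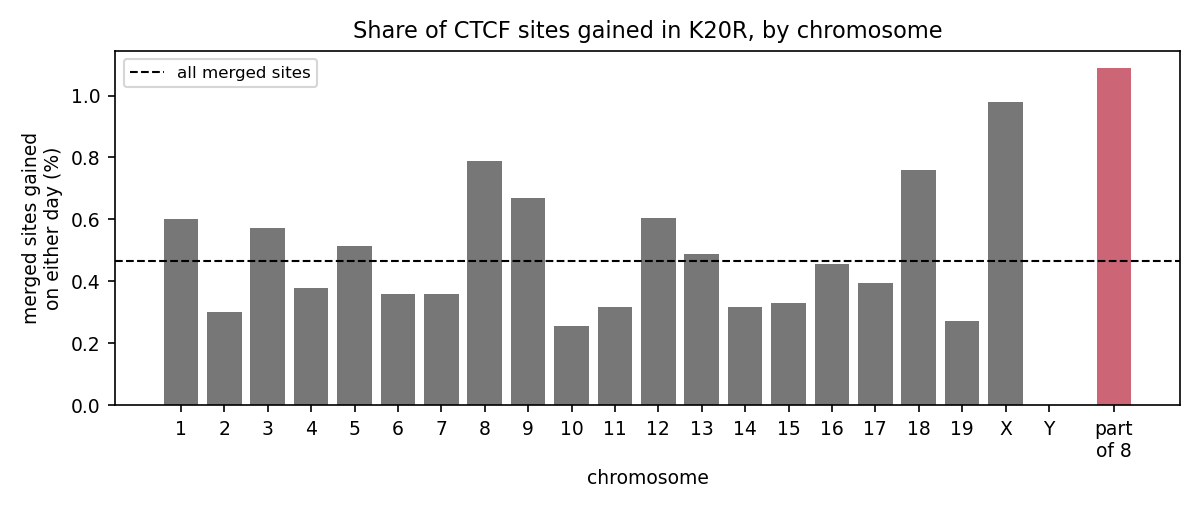
Percentage of merged sites gained on either day (y axis) on each chromosome (grey bars), for the 50 Mb segment of chromosome 8 alone (red bar, also within the bar of chromosome 8), and for all merged sites (dashed line at 0.466%). The red bar reaches 1.09% and chromosome X 0.98%.

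A 50 Mb segment of chromosome 8, starting at 65 Mb, is reported apart. The local background of its peaks was raised in every K20R list. It held 24 gained sites (13 at day 0, 11 at day 4), which is 1.09% of its 2192 sites, compared with 380 of 84460 (0.45%) elsewhere. The segment held 5.94% of the gained sites and 2.53% of all merged sites. Of sites in both K20R lists and 1 WT list, it held 4.27% (day 0) and 6.23% (day 4). A peak background more than 5% above the lowest of its list was found at 87.8% to 88.1% of all sites in this segment in the K20R lists, against 56.2% to 67.2% in the WT lists and 53.5% to 57.2% over all sites in the K20R lists. At the 24 gained sites it was found in 82.4% and 100% (day 0) and 66.7% and 75% (day 4) of those called in K20R, compared with 26.4% to 38.2% at gained sites elsewhere. Copy number and background cannot be told apart in these lists.

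Promoters held 11 of the 24 sites (45.8%, 27.9% to 64.9%) and 28.2% of gained sites elsewhere (23.9% to 32.9%), with intervals that overlap. H3K27ac peaks overlapped 41.7% in the K20R list and 37.5% in the WT list, against 23.3% and 14.6% of all sites of the segment. Of the 3 sites of the segment with the highest percentiles of fold enrichment, the one with the most fragments lay in an intron of Cbfb, the partner subunit of the RUNX factors (chr8:105215120-105215500), gained at day 4 with 20 and 25 fragments. At day 0 it had 41 and 37 in K20R and 28 and 20 in WT. In an exon within Nxnl1, which encodes a survival factor of cone photoreceptors (chr8:71561240-71561614), the day 4 values were 13 and 24. At day 0 they were 17 and 21 in K20R and 16 and 10 in WT. In an exon within Map1s, a microtubule-associated protein (chr8:70917082-70917391), K20R had 17 and 16 at day 0 and WT had 7 in its first library at day 4. Neither exonic site had a motif match. On the other day, the 13 day 0 sites of the segment were called in 7.69% and 38.5% (K20R) and 38.5% and 15.4% (WT), and the 11 day 4 sites in 36.4% and 54.5% and in 63.6% and 54.5%. The differences were -3.85 points (exact permutation p = 1) and -13.6 points (exact permutation p = 0.667), against -2.94 and 7.32 points elsewhere (exact permutation p = 1 for both).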

How the data were processed

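CTCF ChIP-seq libraries were trimmed by the authors with Trim Galore and aligned to mm10 with Bowtie2. Poorly mapped reads, duplicates and reads over blacklisted regions were then discarded by the authors, every CTCF library was subsampled to one number of reads, and MACS2 called narrow peaks (CTCF) or broad peaks (H3K27ac) per library. The input used for each call was not stated, and the 4 input samples were not analysed here. Each deposited list gives a score (not used), the fold enrichment over local background (a ratio), and −log10 p and −log10 q. The deposited files hold no read counts, so depth beyond the recovered fragments is unknown.

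Peaks of the 8 lists were merged where they shared 1 bp or more. The fragments at a summit and the local background were solved from fold enrichment and −log10 p for peaks with −log10 p below 200, and a whole number matched −log10 p within 0.01 for 100% of them. Groups and replicate numbers came from the labels. Calls on the other day were compared between 2 and 2 libraries by two-sided exact permutation tests. Motif, masking and genome sequence came from GRCm38, and start sites and exons from GENCODE annotation of that build. Named sites were all sites gained on both days, the 5 strongest of each day by percentile of fold enrichment, the 3 strongest in the 50 Mb segment of chromosome 8, the 5 strongest of each day in both WT lists of the other day, and sites within 50 kb of a listed gene. Members, lists and tests were chosen with earlier results of these data known. Other settings tried were a stricter −log10 q (5 or more), lists cut to 41360 peaks each, wide and narrow windows around summits, other feature criteria, autosomes only, replicate numbers as a block, and dropping each library in turn while keeping the merged sites. Scripts were tested on simulated data. Software comprised samtools 1.23.1, pysam 0.24.0, matplotlib 3.10.9, scipy 1.17.1 and pandas 2.3.3 under Python 3.11.15.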

Additional observations from a re-analysis of the deposited data

How the results depend on the processing

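The 200 sites gained at day 0, 209 at day 4 and 5 on both days stayed within 1.5 times under a −log10 q of at least 5, the wide summit windows, without the 50 Mb segment of chromosome 8 and on autosomes. With the narrow windows, 10 sites were gained on both days. Equal lists gave 1200, 1832 and 196 sites. Leaving out 1 library eases the criterion of its group, and the counts then ranged from 200 to 3419 (day 0, highest without the first WT library of day 0), 209 to 1911 (day 4, highest without the first K20R library of day 4) and 6 to 46 (both days). Other single-day counts above 1.5 times the main one were 919 and 951 at day 0 without a K20R library of that day, and 460, 472 and 560 at day 4 without the first or second WT or the second K20R library of that day. The count on both days was 8 and 9 without the first or second K20R library of day 0, and 26 and 9 without those of day 4.

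The other-day difference of day 0 sites (-3.0 points) kept its sign in 13 of 15 alternatives, ranged from -22.6 to 8.25 points with 1 library left out, and turned to 24.8 points with equal lists. That of day 4 sites (6.22 points) kept its sign in 12 of 15 and ranged from -10.5 to 23.0 points with 1 library left out. With the replicate number as a block the differences are -3.0 and 6.22 points by construction (exact permutation p = 1 for both). That setting is among the 15 counted for each result and could not change either value. The numbers were not shown to pair the libraries: over 36440 sites called in all 8 lists, the correlation across sites of the WT and K20R replicate differences was -0.006 at day 0 and 0.042 at day 4.

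Shares of gained sites moved with their criteria. The motif share of 74.5% became 60.9% within 50 bp of the summit, 40.8% at the stricter score and 85.3% with equal lists, and the promoter share of 29.2% became 20.0% within 1 kb and 21.5% with equal lists. H3K27ac overlap fell from 15.1% to 9.41% (K20R) and from 13.9% to 8.42% (WT) for H3K27ac peaks of −log10 q at least 5. The share of day 4 sites in both WT lists of day 0 was 52.2%, and 43.5% with equal lists. Only 2 libraries per group and peaks of 9 or 10 fragments limit what a missing call can show.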
